A study of Arabidopsis thaliana with 14 samples.

Results

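Plastid-encoded genes were followed through polyadenylated root RNA of Arabidopsis thaliana. The gene counts held 133 rows whose identifier begins with ATCG, the prefix of the plastid genome, among 33602 genes, and the 73 rows with at least 10 reads summed over the 14 libraries were kept as members. Of the 60 rows left out, 29 had no read and 31 had 1 to 9 reads, 123 reads together. The member nearest the limit had 11 reads and the nearest row outside it had 9. The members held 11396 reads in all, and every value given for the plastid genes rests on that number.

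Plastids keep a small circular genome that codes for parts of the photosystems, the cytochrome b6f complex, the ATP synthase and the NDH complex, the large subunit of Rubisco, an RNA polymerase and much of the plastid ribosome. A plastid-encoded polymerase of bacterial type, which needs nuclear sigma factors, and nuclear-encoded polymerases of phage type share its transcription. Roots carry mostly colourless plastids, in which the photosynthesis genes are known to be little used. Poly(A) tails in plastids mark RNA for decay, so libraries that select poly(A) capture only a part of the plastid RNA. The RefSeq annotation of the plastid chromosome (TAIR10.1, 154478 bases) lists 129 genes, with 37 for transfer RNA, 25 for ribosomal proteins, 15 for photosystem II, 12 for the NDH complex and 7 for ribosomal RNA.

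The files do not pair ATCG identifiers with gene names, and the reference used here names only 5 of the 73 members in its notes. ATCG00670 is the plastid-encoded CLP P, the proteolytic subunit of the Clp protease that degrades stromal proteins. ATCG00750 codes for ribosomal protein S11 of the small subunit, and ATCG00660 for ribosomal protein L20 of the large subunit. ATCG00530 is described as CemA-like, a protein of the envelope membrane linked to proton extrusion. The note for ATCG00430 reads photosystem II reaction center protein G, a name matched to no RefSeq plastid gene and so not taken as its identity. The other 68 members are given by identifier, with no role.

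For 4 of these the position is known from the name: the gene of CLP P lies at 69910 to 71882 on the minus strand, that of S11 at 78960 to 79376 (minus), that of L20 at 68512 to 68865 (minus) and that of CemA at 60741 to 61430 (plus) of the plastid chromosome in TAIR10.1. Every stretch of 50 bases in these 4 genes is found only there, whereas 34.0% of such stretches of the plastid chromosome occur on it more than once and 32 of its 129 genes have no stretch of their own, so that reads on rows in the repeat are uncertain. The start regions were searched for the letters of a bacterial type promoter, TTGACA and TATAAT, each with at most 1 mismatch and 15 to 21 bases apart on the gene's strand. Only that of S11 held a match, as did 19 of the 129 plastid start regions (14.7%). It is shown because S11 is the sole annotated member with such letters, which lie at 79396 to 79424 on the minus strand, 48 bases before the coding start, with the matched letters in capitals.
S11 start region: TTGACCtgaaatggatatatccaTATATT
The match is a description of letters and was not tested as a promoter.

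Roots came from 2 experiments, both on plants of the Col-0 background. On agar plates with mineral salts and sucrose, Col-0 and tex1-4 were grown for 10 days as the labels give it (3 samples each). The paper gives a shorter time for these roots. In pots with a clay granulate, Col-0 and the mutants pho1-7hpr1-5, pho1-7tex1-4 and pho1-7 were grown for 3 weeks (2 samples each). The pho1-7 allele is an insertion in PHO1, a phosphate exporter that loads the xylem, and all mutant pot plants carried it. The tex1-4 and hpr1-5 alleles are T-DNA insertions in TEX1 and HPR1, subunits of the THO/TREX complex, which couples transcription to RNA processing and export. The labels write hpr1-5 where the paper writes hpr1-6. Plate libraries were paired-end and pot libraries single-end per the labels, so growth, age and library type cannot be told apart between the experiments. In the pots, tex1-4 and hpr1-5 were present only together with pho1-7.

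Reads on genes ranged from 56068761 to 110039106 per library. Levels are given as counts per 1000000 reads on genes (CPM). TEX1 had 14.04 to 14.8 CPM in Col-0 and 2.15 to 2.67 CPM in tex1-4 on plates, and 0.706 to 1.03 CPM in pho1-7tex1-4. HPR1 was at 11.5 to 12.6 CPM in pho1-7hpr1-5 against 34.1 to 34.8 in Col-0 pots, and PHO1 at 192.1 to 424.9 in the mutant pot groups against 956.9 to 1022. The 7 root marker genes (WER, SCR, SHR, GL2, CASP1, EXPA7 and PLT1) had reads in all 14 libraries and summed to 288.5 to 477.4 CPM. The 22 nuclear genes of green tissue, such as light-harvesting proteins and the small subunit of Rubisco, summed to 42.6 to 402.7, with at most 2 of the 22 at 0 in a library.

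Plastid RNA was a trace of every library, and each mutant group overlapped the range of its Col-0 libraries. The members summed to between 7.14 and 14.1 CPM. On plates, Col-0 was at 7.46 ± 0.435 (SD, n = 3) and tex1-4 at 9.73 ± 2.05 (SD, n = 3). In pots, Col-0 was at 11.7 ± 3.44, pho1-7hpr1-5 at 9.61 ± 0.448, pho1-7tex1-4 at 11.9 ± 0.768 and pho1-7 at 11.4 ± 1.303 (SD, n = 2 each).

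By library, Col-0 on plates had 7.96, 7.14 and 7.29 CPM, and tex1-4 had 9.28, 11.96 and 7.94 CPM. The lowest tex1-4 library lay between Col-0 values, so the plate groups overlapped. The Col-0 pot libraries had 9.24 and 14.1, the lowest and the highest of all 8 pot libraries, so that every mutant pot library fell between them. For the sum of the members no test was made. Counting error alone gives a Wilson 95% interval of 8.56 to 9.97 for the lower and of 13.2 to 15.04 for the higher Col-0 pot library, and intervals cover counting error only.

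**Figure D1:**
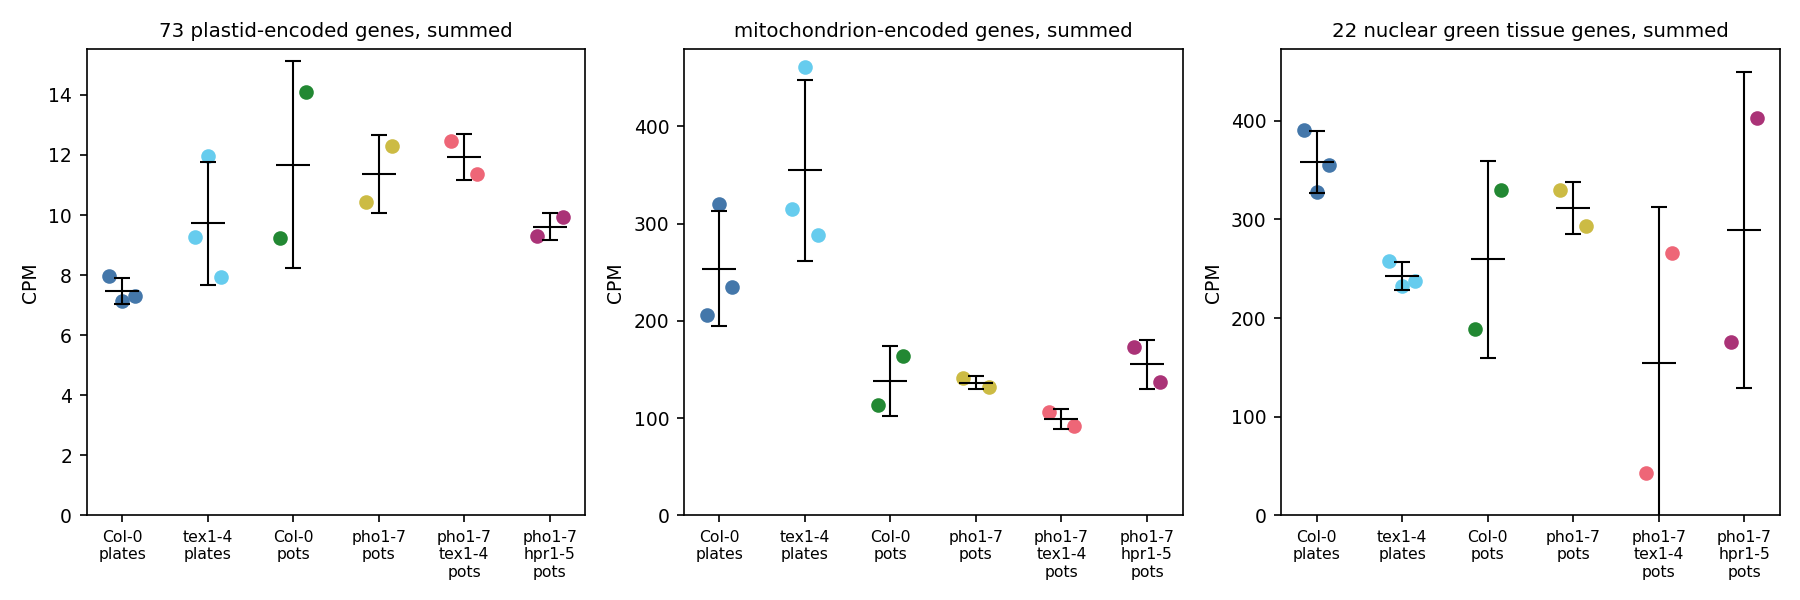
CPM in each library (dots), with group mean and SD (bars), for the 73 plastid-encoded genes, for all mitochondrion-encoded genes and for the 22 nuclear green tissue genes. Plastid sums lay at 7.14 to 11.96 on plates and 9.24 to 14.1 in pots, while the green tissue sum of pot libraries ran from 42.6 to 402.7. The SD bar of pho1-7tex1-4 in that panel runs below the axis.

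Other organelle and leaf-type transcripts did not move with the plastid reads in every library. Mitochondrial reads were at 206.2 to 460.5 CPM on plates and 91.4 to 172.8 in pots, higher on plates in every library, while plastid reads were not. The tex1-4 library with the most plastid reads (replicate 2) also had the most mitochondrial reads, 460.5 CPM. Among the pot libraries the green tissue sum differed up to 9.46-fold and the plastid sum up to 1.53-fold. In pho1-7tex1-4, replicate 1 had a green tissue sum of 42.6 and replicate 2 of 266.4, with plastid sums of 12.5 and 11.4. In pho1-7 the green tissue sums were 330.1 and 292.8, with plastid sums of 10.4 and 12.3. The other pot groups moved the same way in both. Col-0 pots had green tissue sums of 188.9 and 329.7 with plastid sums of 9.24 and 14.1. For pho1-7hpr1-5 they were 176.1 and 402.7 with 9.30 and 9.93. The part of green tissue or of tail capture in the plastid values was not tested, and in bulk RNA fewer plastid-rich cells cannot be told apart from less plastid RNA in each cell.

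The reads were held by few genes. The median member had 71 reads over all libraries and 4 reads in a library. Of the members, 31 had at least 100 reads and 37 were read in all 14 libraries. ATCG00190, ATCG00180 and ATCG00170, singled out after their counts were seen because they had the most reads, had 2899, 894 and 830 reads, together 40.6% of the total. Counts are not corrected for gene length, so this order is one of reads and not of RNA molecules.

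ATCG00190 took a far larger part of the plastid reads in pots than on plates. Its share was 16.9%, 15.1% and 17.7% in Col-0 on plates and 17.8%, 16.3% and 18.5% in tex1-4. Col-0 from pots had 32.0% and 23.8%, and pho1-7hpr1-5 had 27.8% and 27.9%. The share was 36.2% and 35.4% for pho1-7 and 35.6% and 40.4% for pho1-7tex1-4. No pot library overlapped a plate library. ATCG00180 followed with 3.00% to 6.87% on plates and 7.99% to 11.7% in pots, and ATCG00170 with 2.32% to 5.95% and 7.83% to 11.96%. The other 70 members gave 70.3% to 77.8% of the plastid reads on plates and 36.5% to 58.1% in pots. In CPM these 70 summed to 5.21 to 9.09 on plates and 4.16 to 8.20 in pots, ranges that overlapped. The 3 genes summed to 1.59 to 2.87 CPM on plates and 4.06 to 7.22 CPM in pots, without overlap.

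**Figure D2:**
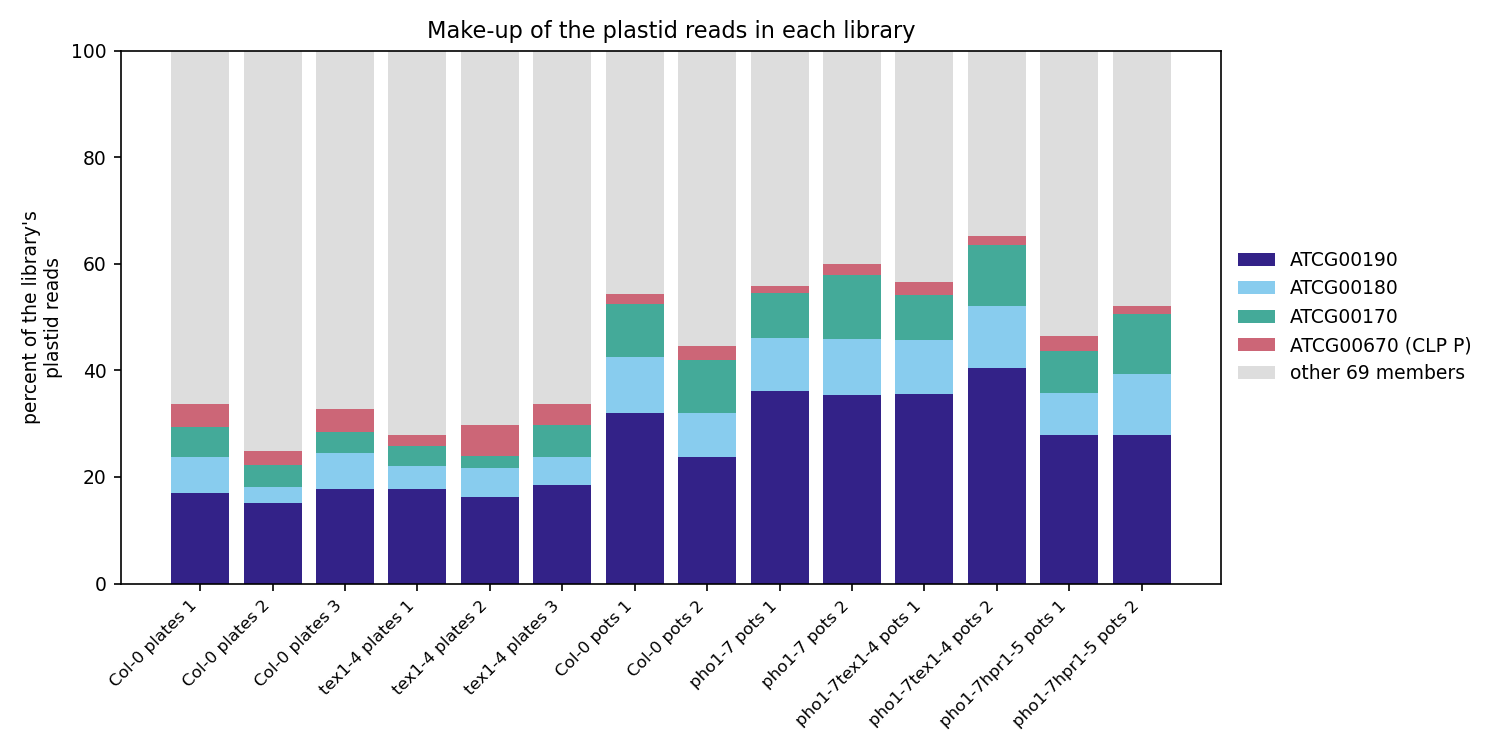
Share of each library's plastid reads (percent, stacked bars) held by the 3 members with the most reads, by ATCG00670 (CLP P) and by the other 69 members. ATCG00190 held 15.1% to 18.5% in the 6 plate libraries and 23.8% to 40.4% in the 8 pot libraries.

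Among the annotated members, CLP P was the most abundant per length. In CPM per kilobase of exon, CLP P had group means from 0.337 ± 0.122 (pho1-7 pots, n = 2) to 0.667 ± 0.446 (tex1-4 plates, n = 3), and S11 had means from 0.215 ± 0.0649 (tex1-4 plates, n = 3) to 0.416 ± 0.179 (Col-0 pots, n = 2), all with SD. CLP P had the higher mean in all 6 groups, but its libraries overlapped those of S11 in Col-0 pots and pho1-7 pots. L20 and CemA were lower, with means from 0.0598 to 0.271 and from 0.0684 to 0.119 on this scale. ATCG00430 had 0 to 4 reads in a library, 19 in all, and had too few reads for every comparison filtered on low counts.

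CLP P was called in no comparison, and its replicates lay far apart. Its reads were 30, 20 and 31 in Col-0 on plates and 20, 72 and 34 in tex1-4, where replicate 2 stood above all others. Pot libraries had 12 and 25 reads for Col-0, 18 and 9 for pho1-7hpr1-5, 17 and 20 for pho1-7tex1-4 and 9 and 16 for pho1-7. Each mutant pot group overlapped the Col-0 pots. The log2 change of tex1-4 over Col-0 on plates was 0.44 (95% interval -0.71 to 1.60, edgeR adjusted p = 0.526), and in the 6 pot comparisons it lay between -0.47 and 0.30 with standard errors of 0.492 to 0.545, so that changes of 2-fold could not be seen at this depth.

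Within the pots the question was whether loss of PHO1, or of TEX1 or HPR1 on top of it, changed plastid transcripts. The test over all 21972 genes with enough reads held 19 of the 73 members, and 54 had too few reads. A gene was called at an adjusted p under 0.1 with a change over 2-fold. The median standard error of the members' log2 changes was 0.460 to 0.501 in these comparisons, against 0.0985 to 0.0990 over all genes.

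In pho1-7 against Col-0, edgeR called 0 of the 19 members raised and 0 lowered, where 0.578% and 1.29% of all genes were called, and 2 members had an unadjusted p under 0.05. Without the filter on low counts 1 member, ATCG00500, was lowered (1.11% of all genes). Against pho1-7, pho1-7tex1-4 had 0 raised and 0 lowered (2.13% and 2.88% of all genes), with 0 at an unadjusted p under 0.05. For pho1-7hpr1-5 against pho1-7 the counts were also 0 and 0 (2.73% and 2.46% of all genes), with 1 at an unadjusted p under 0.05. Between the double mutants they were 0 and 0 (2.82% and 1.27% of all genes), again with 1. In pho1-7hpr1-5 against Col-0, 0 members were raised and 0 lowered (3.12% and 3.81%), with 0 at an unadjusted p under 0.05. DESeq2 likewise called 0 members in each of these 5 comparisons. In pho1-7 against Col-0 and between the double mutants it gave no adjusted p for 13 of the 19 members. These could not be called there. With 19 members tested, these counts are near the background shares.

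The exception was ATCG00500, the only member called in pots with the filter on low counts. It was lowered in pho1-7tex1-4 against Col-0, where 0 members were raised and 1 of 19 was lowered (2.11% and 3.82% of all genes). Col-0 had 0.325 and 0.799 CPM, pho1-7tex1-4 had 0.107 and 0.131, pho1-7hpr1-5 had 0.243 and 0.323, and pho1-7 had 0.264 and 0.156. In pho1-7tex1-4 neither library reached the 0.153 CPM that the filter asks of 2 pot libraries, and the gene passed through the other 3 groups. The p-values below hold only given that route. Every mutant library lay below both Col-0 libraries, but the Col-0 libraries differed from each other more than the mutant groups did. On the log2 scale the change was -2.20 with a standard error of 0.519 (edgeR adjusted p = 0.0106), and DESeq2 gave an adjusted p of 0.00673. In pho1-7 against Col-0 the change was -1.45 (edgeR adjusted p = 0.119). For pho1-7hpr1-5 against Col-0 its 95% interval ran from -2.08 to 0.076 (edgeR adjusted p = 0.119). These comparisons share the Col-0 libraries.

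ATCG00190 was the member measured most precisely, and it differed between the double mutants without reaching 2-fold. Col-0 had 2.95 and 3.36 CPM, pho1-7hpr1-5 had 2.59 and 2.77, pho1-7tex1-4 had 4.44 and 4.60, and pho1-7 had 3.78 and 4.35. The 4 groups did not overlap and ran from pho1-7hpr1-5 through Col-0 and pho1-7 to pho1-7tex1-4. Neighbours in this order were not separated by the test: the adjusted p was 0.147 for pho1-7hpr1-5 against Col-0, 0.152 for pho1-7 against Col-0 and 0.305 for pho1-7tex1-4 against pho1-7. In pho1-7hpr1-5 it was lower than in pho1-7tex1-4 by a log2 change of -0.75 (95% interval -1.04 to -0.46, edgeR adjusted p = 0.00502) and lower than in pho1-7 by -0.58 (adjusted p = 0.0111). In pho1-7tex1-4 it was higher than in Col-0 by 0.50 (adjusted p = 0.0132). Such calls without the fold threshold were common among all genes: 19.3% were lower in pho1-7hpr1-5 than in pho1-7tex1-4, 20.0% lower in pho1-7hpr1-5 than in pho1-7 and 28.3% higher in pho1-7tex1-4 than in Col-0. All 3 held under each of the 14 alternatives tried, with adjusted p up to 0.0350, 0.0549 and 0.0962.

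**Figure D3:**
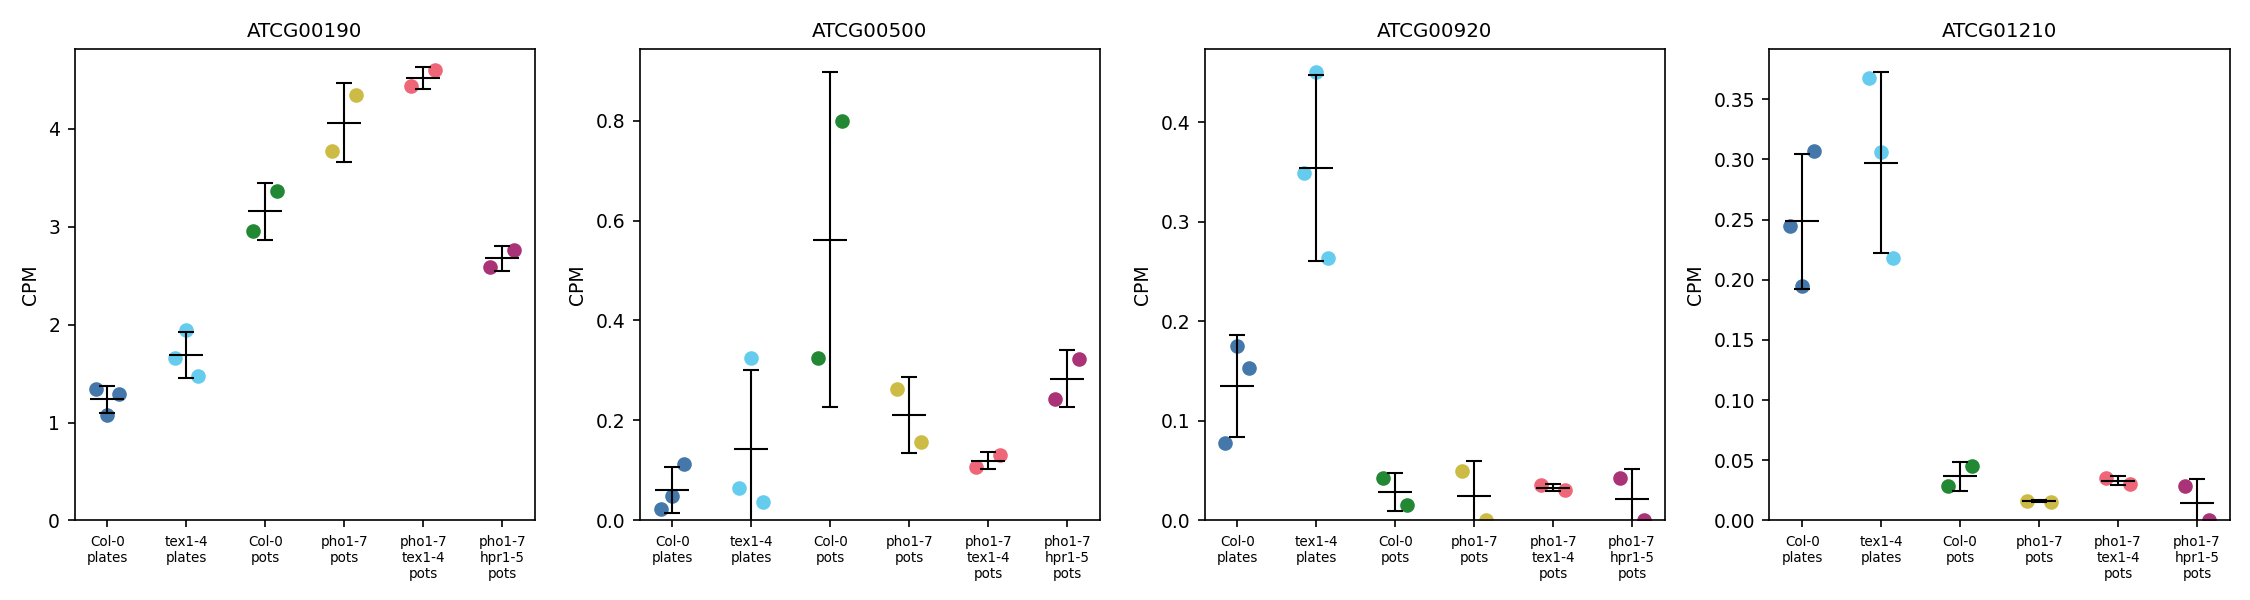
CPM of ATCG00190, ATCG00500, ATCG00920 and ATCG01210 in each library (dots), with group mean and SD (bars). ATCG00190 lay at 1.08 to 1.94 on plates and 2.59 to 4.60 in pots, and ATCG01210 at 0.195 to 0.368 on plates and at most 0.0452 in pots.

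The comparisons with Col-0 in pots rested on which Col-0 library was read. Leaving out 1 of them left a group of 1 library, and the filter on low counts was set again. A member could then pass through 1 library, so the members tested could differ, and counts of calls are not given here. The median log2 change of the members in pho1-7 against Col-0 was -0.17, where that of all genes was 0.01. Over the members then tested it became -0.77 without replicate 1 and 0.24 without replicate 2. The change of ATCG00500 in pho1-7tex1-4 against Col-0 was -2.74 and -1.42 in these settings. It stayed over 2-fold lower in all 14 alternatives tried.

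Nuclear genes that serve plastid transcription were measured far better, and none was called in the pots. The list held SIG1 to SIG6 (sigma factors), RPOTp and RPOTmp (phage-type polymerases) and PTAC2, PTAC3 and HEMERA, which belong to the plastid transcription machinery. Of the 11 genes, 10 were tested, and edgeR and DESeq2 called 0 in each of the 6 pot comparisons. At an unadjusted p under 0.05 there were 8 for each double mutant against Col-0 (median log2 change 0.37 for pho1-7hpr1-5 and 0.44 for pho1-7tex1-4), where 51.1% and 54.7% of all genes were at that threshold and the medians of all genes were 0.00054 and -0.0031. In pho1-7 against Col-0 there were 0, against 25.8% of all genes. Their sum was 105.5 to 113.3 CPM in Col-0 pots, 113.8 to 129.4 in pho1-7, 130.2 to 148.0 in pho1-7hpr1-5 and 146.7 to 147.5 in pho1-7tex1-4. Of the 6 genes for plastid RNA processing and decay (PNP, RNR1, RNJ, RNE, CSP41A and CSP41B), 0 were called in these comparisons. Of 20 green tissue genes tested, edgeR called LHCB1.4, a light-harvesting protein, raised in pho1-7hpr1-5 against each of the other groups and none else, and DESeq2 called 0.

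On plates the question was what loss of TEX1 alone did, and few members were called. Of 21772 genes tested, 24 were members, of which 2 were raised and 0 lowered (2.33% and 3.09% of all genes), and 20 of the 24 had a log2 change above 0 (83.3%, against 51.0% of all genes). The median change was 0.22, against 0.01 over all genes. The members' medians of single libraries of a group had an SD of 0.237, which is not the spread of a difference between groups. Over the members that passed the filter set again each time, the median change was 0.46 without Col-0 replicate 1. It was 0.36 without Col-0 replicate 3 and 0.39 without tex1-4 replicate 3. The filter asked for 0.0966 CPM in 3 plate libraries, which 14 of the 24 members reached within each group, 5 only within tex1-4, 0 only within Col-0 and 5 only over both groups together, while 49 members did not pass. All 5 that passed through tex1-4 alone had a change above 0, and both raised members were among them. Of the 14 that passed within each group, 11 had a change above 0 and 0 were raised. Of the 5 that passed only over both groups together, 4 had a change above 0. These counts do not describe all members, and a shift of the members as a set was not tested.

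The raised members were ATCG00920 and ATCG00360, which reached the filter's level in all 3 tex1-4 libraries and in 2 and 0 of the Col-0 libraries, so that their p-values hold only given that choice. ATCG00920 had 0.0778, 0.175 and 0.153 CPM in Col-0 and 0.349, 0.450 and 0.264 in tex1-4. The groups did not overlap. The rise was 1.32 on the log2 scale (standard error 0.380, edgeR adjusted p = 0.0420, DESeq2 0.0241). ATCG00360 went from 0.0667, 0.0877 and 0.0204 CPM to 0.165, 0.192 and 0.118 CPM, also without overlap, by 1.37 on the log2 scale with a standard error of 0.515 (edgeR adjusted p = 0.0881), while DESeq2 gave 0.118 and did not call it. ATCG00190 was at 1.34, 1.08 and 1.29 in Col-0 and 1.65, 1.94 and 1.47 in tex1-4, 0.41 higher on the log2 scale (edgeR adjusted p = 0.0982) and below 2-fold, where 17.8% of all genes were called higher without the fold threshold.

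These calls did not all hold when 1 plate library was left out. ATCG00920 kept an edgeR adjusted p under 0.1 in 4 of the 6 settings. The filter on low counts was set again on the libraries left, so the members tested could differ. Without tex1-4 replicate 1 or replicate 2, 0 members were called raised, with an adjusted p for ATCG00920 of 0.115 and 0.143. Without Col-0 replicate 1 the count was 1 and without Col-0 replicate 2 it was 4. ATCG00360 kept its call only without Col-0 replicate 2 (edgeR adjusted p = 0.0541) and had an adjusted p of 0.117 to 0.228 when any other library was left out. ATCG00190 lost its place under the threshold when any of the 6 libraries was left out, with an adjusted p of 0.110 to 0.276.

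The nuclear green tissue genes had a lower sum in tex1-4 than in Col-0 on plates, and 1 of them was called. They summed to 328.0 to 390.9 CPM in Col-0 and to 232.1 to 258.1 in tex1-4, without overlap. Of the 19 tested, 0 were raised and 1 was lowered, the light-harvesting gene LHCB2.1 (log2 change -1.67, edgeR adjusted p = 0.00478), and 17 had an unadjusted p under 0.05, as did 41.1% of all genes. DESeq2 called 2 lowered. For plastid transcription, 0 of 10 genes tested were called by either tool, with 2 at an unadjusted p under 0.05, and their sums overlapped (140.9 to 160.0 and 144.8 to 148.7).

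The effect of tex1-4 in pots, within pho1-7, was set against its effect on plates. Of 22667 genes tested with all 14 libraries, 33 were members, and edgeR called 0 of them in either direction (1.81% of all genes), as did DESeq2, with 1 at an unadjusted p under 0.05. For ATCG00190 the difference of the log2 changes was -0.25 (95% interval -0.66 to 0.16). The median standard error of a member's difference was 0.818, so that differences of 2-fold were not detectable for most. The pho1-7 background and the growth conditions cannot be told apart in this difference.

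**Figure D4:**
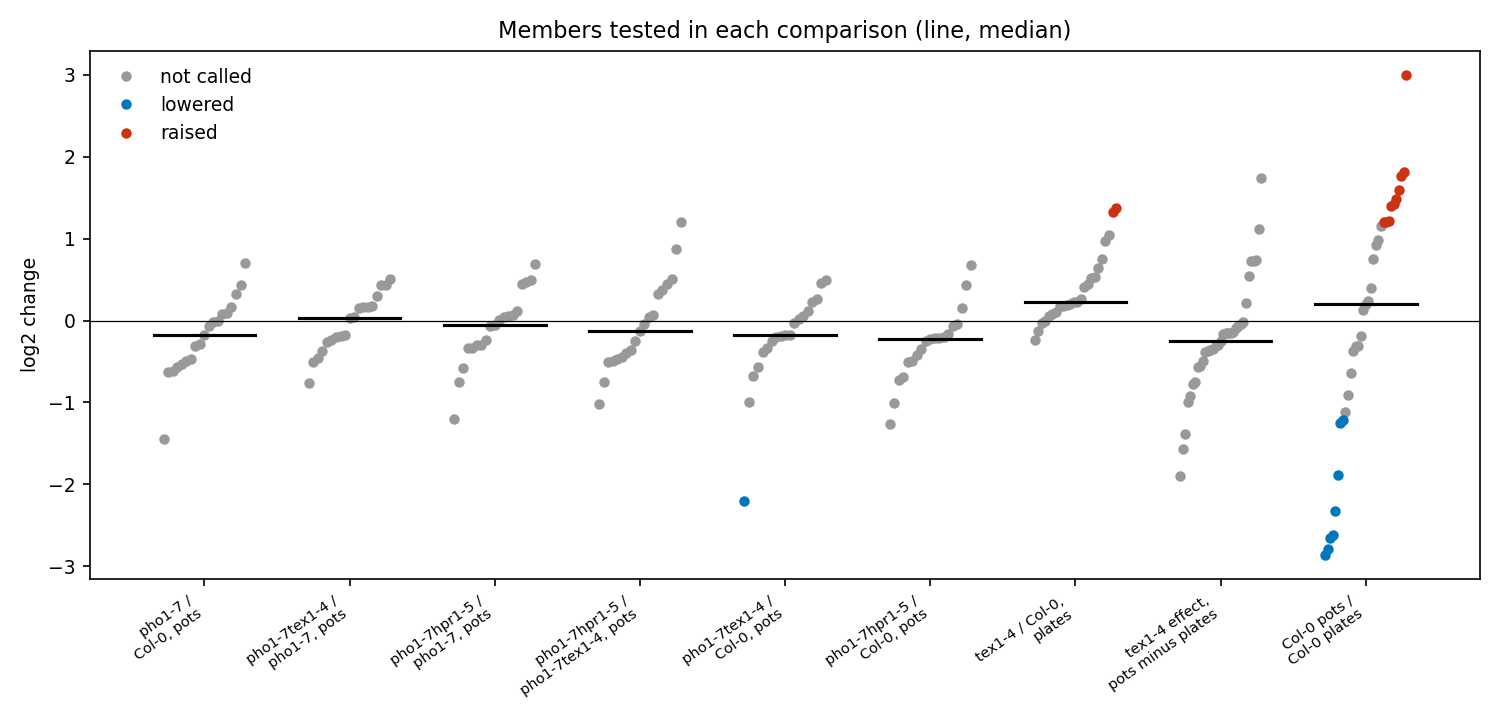
Log2 change of each member tested in the 9 comparisons (dots, ordered within a comparison), with those called raised or lowered in colour and the median as a line. Calls are limited to 1 in the pot comparisons, 2 on plates and 18 between Col-0 roots of pots and plates.

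Col-0 roots of the 2 experiments differed in many members, and in both directions. Of the 33 tested, 10 were higher in pots and 8 lower (10.3% and 11.3% of all genes), and 15 were not called. DESeq2 called 10 and 6. The median log2 change was 0.20 for the members and -0.05 for all genes. The filter on low counts bears on these counts. Of the 33, 15 had enough reads in at least 2 plate and 2 pot libraries, and of these 4 were raised and 2 lowered. A further 9 passed through plates alone, of which 6 were lowered, and 9 through pots alone, of which 6 were raised. Those 18 could hardly be called in any other direction. Without the filter all 73 members were tested, and 18 were raised and 8 lowered (9.18% and 9.21% of all genes).

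The raised members included the 3 with the most reads. ATCG00190 was 2.30-fold higher in pots, at 2.95 and 3.36 CPM against 1.34, 1.08 and 1.29 on plates, a log2 change of 1.20 (95% interval 0.91 to 1.49, edgeR adjusted p = 1.28e-05). It kept an adjusted p under 0.1 and a change over 2-fold in all 19 alternatives. ATCG00500 had the highest log2 change, 3.00, from 0.0222, 0.0487 and 0.112 CPM to 0.325 and 0.799 CPM. It is one of the 9 members that passed through pots alone, having reached the 0.124 CPM that the filter asks of 2 libraries in only 1 plate library, so its change is given as a description. It was 2.22 without Col-0 pots replicate 2 and 3.73 without Col-0 plates replicate 3.

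**Figure D5:**
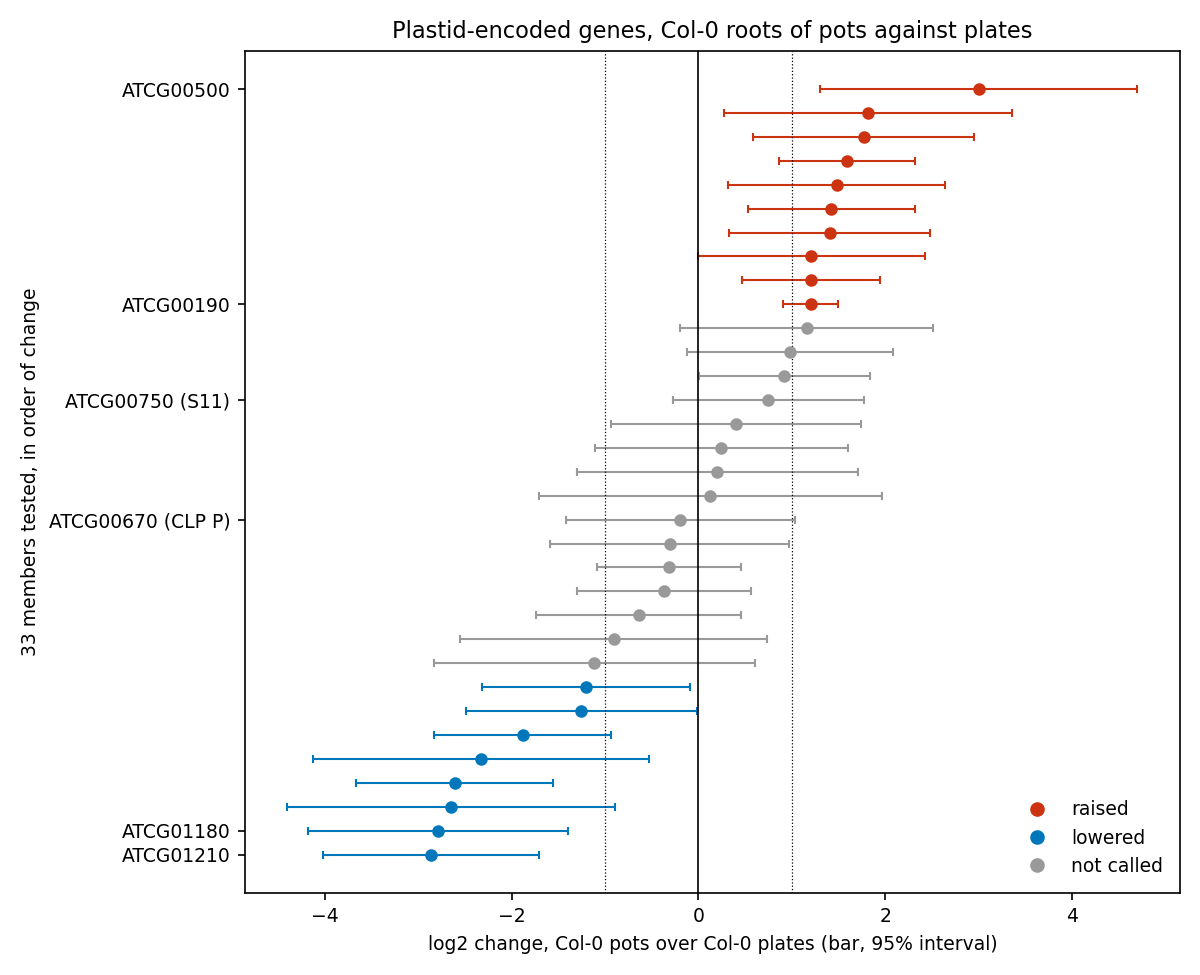
Log2 change of Col-0 in pots over Col-0 on plates for the 33 members tested (dots, with 95% intervals), in order of change, with dotted lines at 2-fold. Changes ran from -2.86 for ATCG01210 to 3.00 for ATCG00500, and CLP P and S11 were not called.

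At the other end stood ATCG01210 and ATCG01180, which are among the 9 members that passed through plates alone and reached 0.124 CPM in 0 pot libraries, so that their changes too are a description. ATCG01210 had 22, 20 and 30 reads in Col-0 on plates and 2 and 3 in Col-0 pots, -2.86 on the log2 scale. ATCG01180 had 34, 23 and 24 reads on plates and 4 and 2 in pots, -2.79 on that scale. No pot library of either gene reached the lowest plate library. CLP P lay at -0.19 (95% interval -1.42 to 1.03) and S11 at 0.75 (-0.27 to 1.77), neither called.

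With the mutants included, the counts of members that did not overlap between the experiments were near the background. Over all genotypes, 5 of the 33 members were higher in each of the 8 pot libraries than in any of the 6 plate libraries (22.0% of all genes were), 6 were lower (15.4% of all genes), and 22 overlapped. ATCG00190 belonged to the former, and ATCG01210, at 0.195 to 0.368 CPM on plates and 0 to 0.0452 in pots, to the latter. Reads placed at more than 1 site were 5.78% to 6.27% of those counted to genes in plate libraries and 4.11% to 5.06% in pot libraries, and their part in these differences was not tested.

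The comparison between pots and plates also depended on the Col-0 pot libraries. Leaving out 1 of them left a group of 1 library, and the filter on low counts was set again. The members tested could therefore differ, and counts of calls are not given here. Over the members then tested, the median log2 change was 0.63 without Col-0 pots replicate 1 and -0.20 without replicate 2. It was -0.10 without Col-0 plates replicate 3. The rise of ATCG00190 stayed over 2-fold in all of these settings.

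Some nuclear genes for plastid functions were called between pots and plates, where 10.3% of all genes were raised and 11.3% lowered. Among the 10 plastid transcription genes tested, 0 were raised and 1 lowered, SIG5, a light- and stress-responsive sigma factor (-1.98 on the log2 scale, standard error 0.168, edgeR adjusted p = 1.33e-06). SIG5 was at 16.4, 20.4 and 17.6 CPM in Col-0 on plates and at 4.99 and 5.26 in pots. Of the 6 processing and decay genes, the RNA-binding proteins CSP41A (-3.66) and CSP41B (-1.81) were lowered and 0 raised. In the green tissue list of 22, 2 light-harvesting genes were raised and 7 lowered, among them RCA, the Rubisco activase (-2.42), and PETE2, a plastocyanin (-3.05), and the sums overlapped (328.0 to 390.9 on plates, 188.9 to 329.7 in pots). GLK1, a transcription factor of chloroplast development, was raised by 1.64, and 2 of the 3 greening regulators were not called. Of the 7 root markers, edgeR called only CASP1 lowered (-1.01) and DESeq2 called 0.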

How the data were processed

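Polyadenylated root RNA was sequenced in 14 libraries of 6 groups. Per the paper's methods and the labels, the authors aligned stranded reads with HISAT2 to TAIR10.31 and counted them per gene with HTSeq-count, and the deposited values are raw counts of reads per gene, not normalized. The deposited counts of 3' extensions held 1462 rows, of which 0 were plastid genes, and were not used. Groups and replicate numbers came from the labels.

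CPM are counts per 1000000 reads on genes. Shares carry Wilson 95% intervals, which cover counting error only, and a gene with 0 reads in a library could have been at up to 0.0273 to 0.0535 CPM (3 counts). Tests used edgeR 4.0.16 (R 4.3.3): filterByExpr, TMM normalization, glmQLFit and glmQLFTest, with Benjamini-Hochberg adjustment over all genes tested, and standard errors from the log2 change and F statistic. The 8 pot libraries were fitted together, the 6 plate libraries separately and all 14 for comparisons between experiments. Replicates differed beyond sampling noise (chi-square per degree of freedom of 12.7 to 131.7 over all genes). Over the plastid members with enough reads it was 1.02 to 2.86, for their levels relative to each other. Nothing says that they came from separate cultures, so p-values measure the spread between these samples. DESeq2 1.42.0, RLE factors, TMM on nuclear genes, no filter, other thresholds, the compared groups alone, a replicate block and leaving out each library were tried. The test was checked on simulated counts. The changed genes there had more reads than most members and changes larger than the fold threshold. The check therefore does not cover the depth of most members.

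The members and lists were chosen with earlier results of these data known. Since the identifiers are not paired with symbols, functional classes, transcription units, levels per length of most members and rows in the inverted repeat could not be described, and the naming rule was reduced to annotated members, the 3 with most reads, and at most 2 raised and 2 lowered members per comparison. In pots against plates ATCG00190 took the place of the second largest rise, chosen after values were seen. Names and sequence came from RefSeq TAIR10.1 and Python 3.11.15 was used for summaries.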

Additional observations from a re-analysis of the deposited data

How the results depend on the processing

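Medians of the members' log2 changes moved by less than the spread between libraries under all 51 alternatives other than leaving out a library. Under those, 62 of 69 counts of raised members and 66 of 69 counts of lowered members stayed within 1.5 times the main count. Without a filter on low counts, 1 member was lowered in pho1-7 against Col-0 and 18 were raised in Col-0 pots against plates. With the compared groups alone, 1 was raised in pho1-7hpr1-5 against pho1-7tex1-4. With no fold threshold, 1 was lowered in pho1-7hpr1-5 against pho1-7, 1 lowered in pho1-7hpr1-5 against pho1-7tex1-4 and 1 raised in pho1-7tex1-4 against Col-0. In tex1-4 against Col-0 on plates, 1 was raised with DESeq2 and 1 at an adjusted p under 0.05. Replicate numbers did not pair the libraries (correlations of same-numbered deviations of -0.19 to 0.23), and with the replicate block 1 was raised in tex1-4 on plates and 6 in Col-0 pots against plates. The cause of these moves was not tested.

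Leaving out 1 library in turn, raised members numbered 0 to 1 in pho1-7hpr1-5 against pho1-7tex1-4, 0 to 1 in pho1-7tex1-4 against Col-0, 0 to 2 in pho1-7hpr1-5 against Col-0, 0 to 4 in tex1-4 on plates and 5 to 15 in Col-0 pots against plates. Lowered members numbered 0 to 1 in pho1-7 against Col-0, 1 to 5 in pho1-7tex1-4 against Col-0, 0 to 5 in pho1-7hpr1-5 against Col-0 and 5 to 9 in Col-0 pots against plates. Median log2 changes ran from -0.77 to 0.24 in pho1-7 against Col-0, -0.41 to 0.25 in pho1-7hpr1-5 against pho1-7tex1-4, -0.68 to 0.40 in pho1-7tex1-4 against Col-0, -0.63 to 0.092 in pho1-7hpr1-5 against Col-0, -0.55 to -0.10 for tex1-4 in pots minus plates, -0.20 to 0.63 in Col-0 pots against plates and 0.23 to 0.46 in tex1-4 against Col-0 on plates. A pot group left with 1 library is assumed to vary like the others. The filter on low counts was set again each time. A member could then pass through that 1 library, so the members tested could differ between settings. Shares of all genes called in these settings are not given. The counts with a pot library left out are therefore not read as effects on the members. No named member changed direction while called. Depth limits these values, with 4 reads in the median member and library, and so does the choice of Col-0 pot library. Leaving out rows of the inverted repeat and rows of ribosomal and transfer RNA was not run, since the identifiers are not paired with names.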
